A study of Mus musculus with 8 samples.

Results

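The D and E cyclins, the cyclin-dependent kinases they bind and the Cip/Kip inhibitors Cdkn1a and Cdkn1b were followed in regenerating mouse liver. This was done with or without knockdown of Tbl1xr1. The set was chosen by name as 10 genes (Ccnd1, Ccnd2, Ccnd3, Ccne1, Ccne2, Cdk2, Cdk4, Cdk6, Cdkn1a and Cdkn1b) out of 55401 in each table, and all 10 had enough counts to be among the 13908 genes tested. All mice were labelled C57BL/6J, received an adeno-associated virus aimed at hepatocytes 4 weeks before partial hepatectomy, the removal of most of the liver, and gave liver on day 2 after it. The virus carried either a control short hairpin RNA (shNC, 4 libraries) or a hairpin against Tbl1xr1 (shTbl1xr1, 4 libraries), whose product is a subunit of the NCoR corepressor complex. The comparison asks how knockdown of Tbl1xr1 changed transcript levels during regeneration. RNA came from whole liver, so it also holds RNA of cells the virus was not aimed at, and neither the age and sex of the mice nor a batch is given in the sources used here.

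These genes decide whether a resting cell passes from the G1 phase into DNA synthesis. Growth signals raise the D cyclins, which switch on Cdk4 and Cdk6, and these begin to phosphorylate the retinoblastoma protein family. E2F transcription factors are then released and raise the E cyclins, which act through Cdk2. The Cip/Kip inhibitors p21 (Cdkn1a) and p27 (Cdkn1b) bind cyclin-kinase complexes and hold back Cdk2. In regenerating liver, resting hepatocytes re-enter the cycle, and induction of cyclin D1 is the step best known for carrying them past the restriction point.

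The libraries shTbl1xr1 1 and 2 stood apart from the other 6. They are called the shallow pair. They held 10895508 and 10728583 expected counts, against 25811763 to 36720879 in the others, and 11.3% and 14.8% of their counts came from mitochondrially encoded genes, against 4.52% to 7.34%. Levels are given as CPM, a gene's share of its library's counts after scaling by edgeR's TMM factors, which correct for RNA composition. Tbl1xr1 itself (ENSMUSG00000027630.13) had 27.2, 35.9, 33.7 and 34.6 CPM in shNC 1 to 4. In shTbl1xr1 1 to 4 it had 2.38, 2.07, 9.24 and 15.9 CPM, so the targeted gene was lowest in the same pair. Macrophage, endothelial and stellate cell markers were also low there. Summed levels were 190 to 205 CPM for 8 macrophage genes, 120 to 139 CPM for 8 endothelial genes and 114 to 128 CPM for 8 stellate cell genes, where shNC spanned 434 to 713, 211 to 238 and 247 to 476 CPM. In shTbl1xr1 3 and 4 the same sums were 490 to 549, 234 to 242 and 285 to 567 CPM. In the main comparison 8 of 8 macrophage, 8 of 8 endothelial and 7 of 8 stellate genes had negative log2 fold changes, beside 6871 of all 13908 genes. Of the genes in these 3 lists, 0 were at 0 in any library. Their median log2 differences from shNC were -1.38, -0.88 and -1.46 in the shallow pair. In shTbl1xr1 3 and 4 the medians were -0.11, 0.07 and 0.05. Lymphocyte, neutrophil and bile duct sums were 10.9 to 13.8, 2.62 to 8.07 and 31.7 to 118 CPM in shNC. They were 3.63 to 4.005, 2.38 to 3.73 and 37.1 to 55.0 CPM in the shallow pair, where of these 3 only the lymphocyte sums lay wholly below the shNC range. In shTbl1xr1 3 and 4 they were 11.4 to 11.8, 5.65 to 13.6 and 59.8 to 236 CPM, so the highest neutrophil and bile duct sums lay above it. Of the lymphocyte and neutrophil genes, 4 of 8 and 3 of 6 were at 0 in some library. The lymphocyte sum was mostly Ptprc, with a mean of 8.62 CPM in shNC. Hepatocyte markers, with Alb and Hnf4a among them, were detected in every library, at a summed 53638 to 70331 CPM in shNC. Their sums were 74366 to 83874 CPM in the shallow pair, above the shNC range, and 51741 to 74587 CPM in shTbl1xr1 3 and 4. The median log2 difference of the 8 hepatocyte genes from shNC was 0.27 in the shallow pair and 0.12 in shTbl1xr1 3 and 4. In whole-liver RNA, fewer cells of a type and less RNA per cell cannot be told apart.

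None of the 10 genes passed an adjusted p of 0.05 over all genes by edgeR's quasi-likelihood test, in either direction. Over all genes 6 were higher in shTbl1xr1 (0.0431%) and 1 was lower (0.00719%). At an unadjusted p under 0.05, 2 of the 10 were lower (Ccnd1 and Ccne2) and 0 were higher, beside 3.71% and 7.90% of all genes. The groups did not overlap for 1 of the 10, Ccnd1, which was lower, beside 3.37% of all genes lower and 3.88% higher without overlap. Median log2 fold changes were -0.10 for the 10 genes and 0.01 for all genes tested. The plot of CPM by library shows the shallow pair outside the shNC range for Ccnd1, Ccnd2, Ccnd3, Ccne2, Cdk2, Cdk4, Cdk6 and Cdkn1b. The share of all genes with that pair outside the shNC range was not computed. In the edgeR fit of that pair against shNC, 21.1% of all genes were lower and 21.5% higher at an adjusted p under 0.05.

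**Figure D1:**
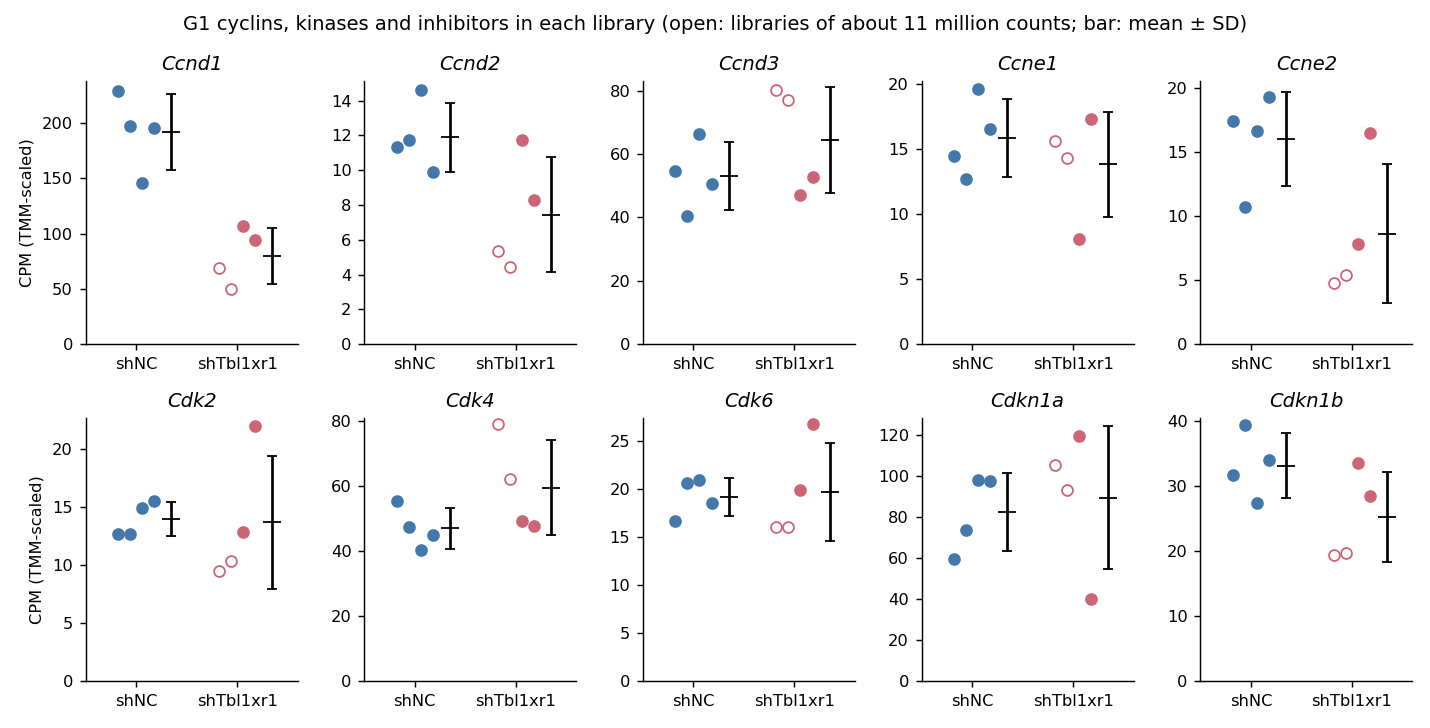
TMM-scaled CPM (vertical axes, linear from 0) of the 10 genes in the 4 shNC (blue) and 4 shTbl1xr1 (red) libraries, in replicate order from left to right, with the mean ± SD of each group in black. Open circles are shTbl1xr1 1 and 2. Ccnd1 is the 1 gene whose groups do not overlap.

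Among the D cyclins, Ccnd1 had the lowest levels in shTbl1xr1 relative to shNC. Ccnd1 (ENSMUSG00000070348.5; chromosome 7, 144929931 to 144939925, minus strand, mm10) encodes cyclin D1. It had 229, 198, 146 and 196 CPM in shNC 1 to 4 and 68.7, 49.7, 107 and 94.6 CPM in shTbl1xr1 1 to 4. Every shTbl1xr1 library lay below every shNC library, and the shallow pair lay below shTbl1xr1 3 and 4. Group means were 192 ± 34.2 and 79.9 ± 25.6 CPM (SD, n = 4 each), so the shTbl1xr1 mean was 41.6% of shNC. The log2 fold change was -1.26 (SE 0.26; adjusted p = 0.180), which placed Ccnd1 at rank 54 of 13908 by p. Against shNC the mean was 52.3% in shTbl1xr1 3 and 4 and 30.8% in the shallow pair.

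The call for Ccnd1 depended on the tool and the libraries. Its adjusted p was 0.000801 with DESeq2, where 0.262% of genes were lower and 1.59% higher, and 0.0331 with limma-voom and sample weights, where 0.0144% were lower and 0.223% higher. Neither tool called any of the 10 genes higher. With shTbl1xr1 3 and 4 as the only knockdown libraries the log2 fold change was -0.94 (adjusted p = 0.200), and over all 20 alternatives its adjusted p ran from 0.000501 to 0.619. The order of the 4 shTbl1xr1 libraries by Ccnd1 was 2, 1, 4 and 3 from the lowest, and by Tbl1xr1 it was 2, 1, 3 and 4. The lower macrophage, endothelial and stellate sums lay in the same pair as the lowest Ccnd1 levels. In shTbl1xr1 3 and 4 those sums lay above the shNC minimum and Ccnd1 lay below every shNC library. The part of these cells in the Ccnd1 difference was not tested.

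Ccnd2 (ENSMUSG00000000184.12; chromosome 6, 127125162 to 127152193, minus strand), which encodes cyclin D2, had 11.3, 11.7, 14.6 and 9.88 CPM in shNC and 5.38, 4.42, 11.7 and 8.28 CPM in shTbl1xr1. Only the shallow pair and shTbl1xr1 4 lay below the shNC range, and the pair's values rest on 43 and 32 counts. The log2 fold change was -0.64 (SE 0.29; adjusted p = 0.426). Relative to the shNC mean on the log2 scale, Ccnd2 was -1.26 in the shallow pair and -0.25 in shTbl1xr1 3 and 4. Macrophage, endothelial and stellate cell marker sums were low in the same pair, as was the lymphocyte list's sum, which was mostly Ptprc. The part of these cells in this difference was not tested.

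Ccnd3 (ENSMUSG00000034165.16; chromosome 17, 47505051 to 47599691, plus strand), which encodes cyclin D3, had 54.8, 40.5, 66.2 and 50.5 CPM in shNC and 80.1, 77.1, 47.1 and 52.8 CPM in shTbl1xr1. Its shallow values lay above every shNC library, while shTbl1xr1 3 and 4 lay within the shNC range. The log2 fold change of 0.27 (SE 0.22; adjusted p = 0.595) took the opposite sign with shTbl1xr1 3 and 4 only (-0.087) and without TMM factors (-0.098).

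**Figure D2:**
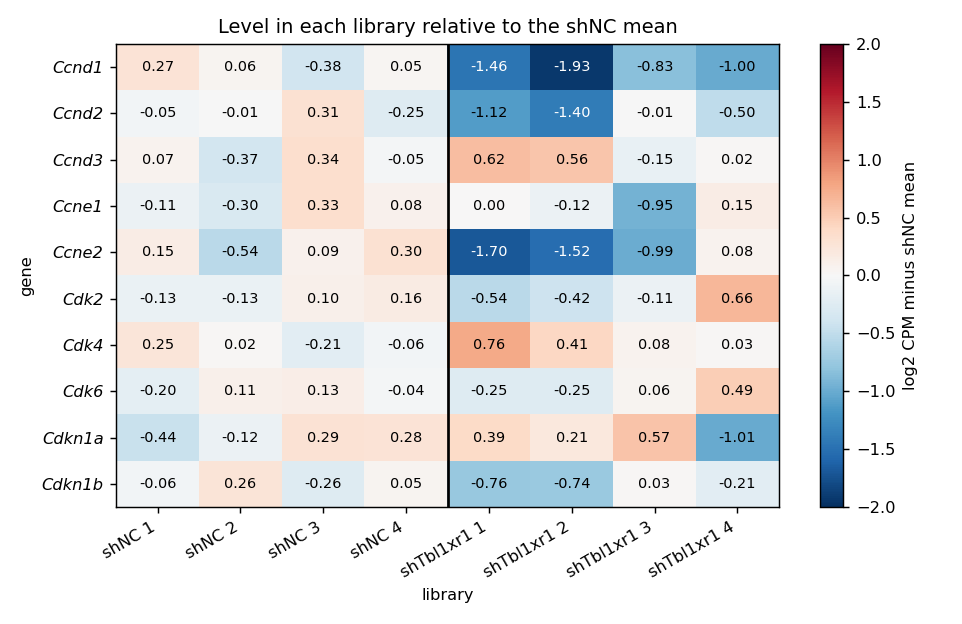
Log2 CPM of each gene (rows) in each library (columns) minus the shNC mean, printed in each cell and shaded from blue (lower) to red (higher). Ccnd1 is between -1.93 and -0.83 in all 4 shTbl1xr1 libraries, and Ccnd2, Ccne2 and Cdkn1b are lowest in shTbl1xr1 1 and 2, where Ccnd3 and Cdk4 are highest.

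Levels of different genes were compared as deposited TPM, in which transcript counts are divided by transcript length and scaled to the same total in every library. In shNC the order by mean TPM was Ccnd1 (70.5 ± 8.76), Cdkn1a (64.9 ± 18.3), Cdk4 (46.4 ± 5.86), Ccnd3 (40.7 ± 8.94), Cdkn1b (16.8 ± 2.15), Ccne1 (11.9 ± 2.98), Ccne2 (8.73 ± 1.42), Cdk2 (8.53 ± 1.31), Cdk6 (4.11 ± 0.667) and Ccnd2 (2.73 ± 0.758; SD, n = 4). The shNC ranges of neighbours in this order overlapped, except between Ccnd3 and Cdkn1b and between Cdk2 and Cdk6. Cyclin D1 and cyclin D3 transcripts were thus the main D cyclin transcripts, and Cdk4 exceeded Cdk6 in every shNC library.

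In deposited TPM, the share of Ccnd1 among D cyclin transcripts was lower in shTbl1xr1 without overlap, but did not pass after adjustment. Ccnd1 made up 66.1%, 67.3%, 50.1% and 64.2% of summed D cyclin TPM in shNC 1 to 4, and 29.7%, 24.1%, 49.7% and 44.8% in shTbl1xr1 1 to 4. The groups did not overlap, but shNC 3 and shTbl1xr1 3 were close to each other. The difference in means was -24.9 percentage points, with a two-sided exact permutation p of 0.0286, the smallest that 4 against 4 libraries can give. Adjusted over the 4 values formed from several genes (0.0571), it did not pass. In shTbl1xr1 3 and 4 alone the mean difference from shNC was -14.7 percentage points (exact permutation p = 0.0667, the smallest of 15 arrangements).

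Summed D cyclin levels were 116, 109, 115 and 116 TPM in shNC and 42.3, 33.1, 83.4 and 80.9 TPM in shTbl1xr1, again without overlap. The log2 difference of -1.04 had an exact permutation p of 0.0286 (adjusted p = 0.0571 over the 4 values). TPM is not corrected for RNA composition, and the TMM factors were 0.734 and 0.675 in the shallow pair against 1.08 to 1.16 in the other 6. With TMM-scaled counts divided by the annotated mean transcript length, the log2 difference was -0.58 (exact permutation p = 0.0286). The Ccnd1 share then differed by -24.3 percentage points (exact permutation p = 0.0571), and the adjusted p was 0.114 for both. With these lengths the groups overlapped in the Ccnd1 share, at shNC 3 and shTbl1xr1 3. With TMM-scaled counts per kilobase of deposited length, an alternative added after the data were seen, the sum was 76.0 to 91.4 in shNC and 52.9 to 59.7 in shTbl1xr1, and the log2 difference was -0.54.

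**Figure D3:**
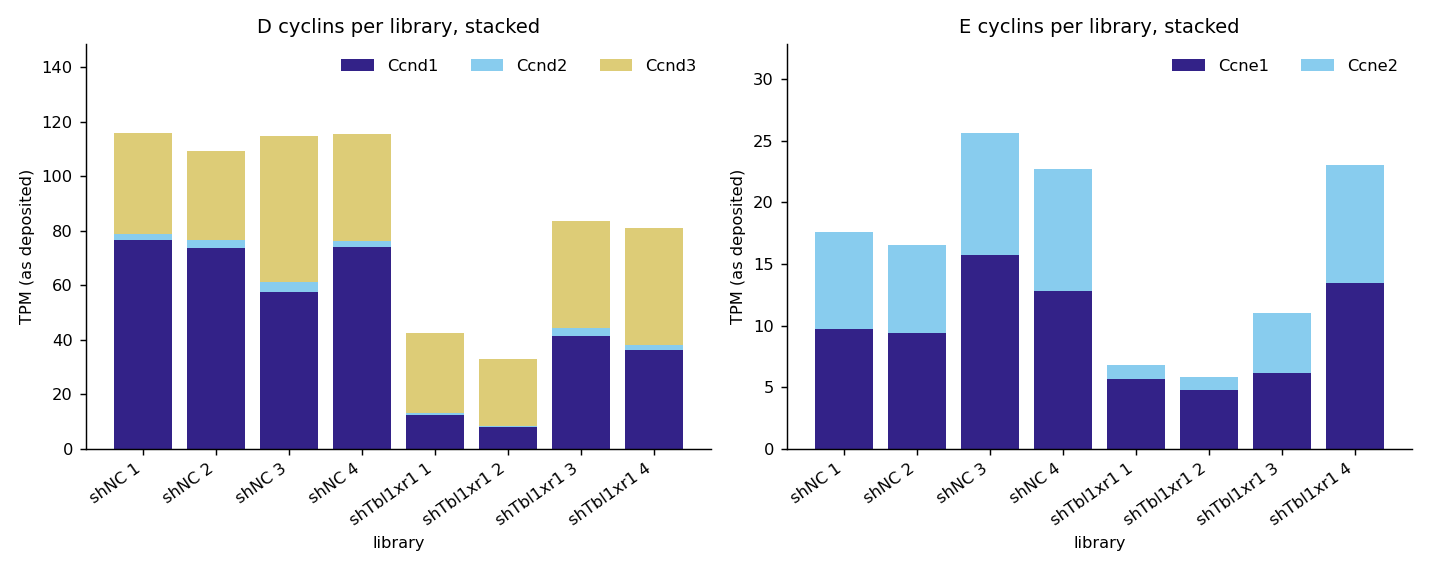
Deposited TPM of the D cyclins (left) and E cyclins (right), stacked by gene, for each library on the horizontal axis; each bar is 1 library. The Ccnd1 segment is shorter in all 4 shTbl1xr1 libraries. Ccne2 is the smaller part of the E cyclins in every library, with its lowest shares in shTbl1xr1 1 and 2.

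Of the E cyclins, Ccne2 had the larger difference in means and neither passed. Ccne1 (ENSMUSG00000002068.16; chromosome 7, 38097984 to 38107534, minus strand), which encodes cyclin E1, had 14.5, 12.7, 19.7 and 16.6 CPM in shNC and 15.6, 14.4, 8.08 and 17.4 CPM in shTbl1xr1. Only shTbl1xr1 3 lay outside the shNC range, and the log2 fold change was -0.20 (SE 0.25; adjusted p = 0.738). Ccne2 (ENSMUSG00000028212.16; chromosome 4, 11191351 to 11204779, plus strand), which encodes cyclin E2, had 17.4, 10.7, 16.7 and 19.3 CPM in shNC and 4.76, 5.39, 7.83 and 16.5 CPM in shTbl1xr1. Of its knockdown libraries, 3 lay below the shNC range and shTbl1xr1 4 lay within it. The log2 fold change was -0.85 (SE 0.38; adjusted p = 0.426), with 38 and 39 counts behind the values of the shallow pair.

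Ccne1 made up 55.3%, 56.7%, 61.4% and 56.3% of E cyclin TPM in shNC and 83.3%, 81.0%, 56.0% and 58.5% in shTbl1xr1. The higher share was thus seen in the shallow pair, and shTbl1xr1 3 and 4 were at shNC levels. The mean difference of 12.3 percentage points (exact permutation p = 0.229, adjusted p = 0.229) became -0.16 with shTbl1xr1 3 and 4 only.

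Cdk4 and Cdk6 are the kinases of the D cyclins, and neither passed. Cdk4 (ENSMUSG00000006728.12; chromosome 10, 127063534 to 127067920, plus strand) had 55.4, 47.4, 40.3 and 44.9 CPM in shNC and 79.1, 62.1, 49.2 and 47.6 CPM in shTbl1xr1. The shallow pair lay above the shNC range and the other 2 within it. The fitted log2 difference was 0.34 (SE 0.20; adjusted p = 0.483), and without TMM factors it was -0.010. Cdk6 (ENSMUSG00000040274.11; chromosome 5, 3341485 to 3531008, plus strand) had 16.6, 20.6, 20.9 and 18.5 CPM in shNC and 16.0, 16.0, 19.9 and 26.9 CPM in shTbl1xr1. The shallow pair lay just below the shNC range and shTbl1xr1 4 above it. The fitted log2 difference of 0.05 (SE 0.20; adjusted p = 0.930) became -0.022 with upper quartile scaling and -0.19 without TMM factors.

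Cdk2 (ENSMUSG00000025358.16; chromosome 10, 128697939 to 128705031, minus strand), the kinase of the E cyclins, had 12.7, 12.6, 14.9 and 15.5 CPM in shNC and 9.51, 10.4, 12.8 and 22.0 CPM in shTbl1xr1. The shallow pair lay below the shNC range and shTbl1xr1 4 above it, so the knockdown libraries fell on either side of shNC. The log2 fold change was -0.01 (SE 0.26; adjusted p = 0.990).

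The promoters of the kinases Cdk4 and Cdk2 are shown as the windows of these genes with the most sites for 2 motifs of cell cycle control. E boxes are bound by Myc and related factors, and E2F cores by the factors that the retinoblastoma family holds back. Each sequence is the 250 bases before the RefSeq start on GRCm38.p6, read 5′ to 3′ on the gene's strand, at chr10:127063285-127063534 (plus strand) for Cdk4 and chr10:128705052-128705301 (minus strand) for Cdk2. Capitals mark the E box CACGTG in Cdk4 and the E2F core in Cdk2, searched on both strands as TTCCCGC, or that word with the bases CC after TT changed to GG, CG or GC.
Cdk4: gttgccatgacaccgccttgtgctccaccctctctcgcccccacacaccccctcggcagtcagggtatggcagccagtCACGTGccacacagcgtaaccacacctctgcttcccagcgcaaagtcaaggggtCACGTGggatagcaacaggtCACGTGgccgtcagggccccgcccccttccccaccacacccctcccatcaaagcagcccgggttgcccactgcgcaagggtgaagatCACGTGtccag
Cdk2: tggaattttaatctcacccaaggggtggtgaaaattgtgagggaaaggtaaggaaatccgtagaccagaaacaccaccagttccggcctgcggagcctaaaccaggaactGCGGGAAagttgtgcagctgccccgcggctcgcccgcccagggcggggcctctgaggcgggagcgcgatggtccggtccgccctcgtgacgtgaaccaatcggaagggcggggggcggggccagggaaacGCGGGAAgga
The Cdk4 window held 4 E boxes and no E2F core, and the Cdk2 window held 2 E2F cores and no E box. No marked site overlapped another. Of 32851 promoter windows of the same length, 6.02% held at least 1 E box and 7 windows (0.0213%) held 4 or more. At least 1 E2F core was held by 7.89%, and the share with 2 or more was not computed. Of the other windows of these genes, only that of Cdk6 held either motif, with 1 E box. The GC box GGGCGG was also searched. Its highest numbers in these genes were 5 for Cdk2 and 4 for Ccne1, where 32.7% of all windows held at least 1 and 4.09% held 4 or more. Promoter windows were matched by symbol for 7 of the 10 genes (Ccnd3, Ccne1, Cdk2, Cdk4, Cdk6, Cdkn1a and Cdkn1b). These matches describe the letters of the windows and were not tested against the levels above.

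Neither Cdkn1a nor Cdkn1b, the Cip/Kip inhibitors of the set, passed. Cdkn1a (ENSMUSG00000023067.14; chromosome 17, 29090976 to 29100727, plus strand), which encodes p21 and is a target of p53, had 59.4, 73.9, 98.2 and 97.8 CPM in shNC and 106, 93.1, 120 and 39.9 CPM in shTbl1xr1. The knockdown libraries lay on either side of the shNC range, with shTbl1xr1 3 the highest and shTbl1xr1 4 the lowest of all 8. The log2 fold change was 0.12 (SE 0.32; adjusted p = 0.887), and without TMM factors it was -0.21. Cdkn1b (ENSMUSG00000003031.14; chromosome 6, 134920401 to 134925513, plus strand), which encodes p27, had 31.6, 39.4, 27.4 and 34.0 CPM in shNC and 19.4, 19.6, 33.5 and 28.4 CPM in shTbl1xr1. Only the shallow pair lay below the shNC range, and the log2 fold change was -0.38 (SE 0.21; adjusted p = 0.472).

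The balance of D cyclins to Cdkn1a and Cdkn1b was taken as the ratio of their summed TPM. It was 2.03, 1.41, 1.19 and 1.21 in shNC and 0.922, 0.918, 0.726 and 1.71 in shTbl1xr1. It lay below the shNC range in 3 knockdown libraries and inside it in shTbl1xr1 4, where Cdkn1a was lowest. The log2 difference was -0.49 (exact permutation p = 0.171, adjusted p = 0.229). It was -0.74 without shTbl1xr1 4 (exact permutation p = 0.0286, adjusted p = 0.0571) and -0.32 without shNC 1 (exact permutation p = 0.343).

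With the shallow pair as the only knockdown libraries, a setting added after the data were seen, 5 of the 10 genes were lower (Ccnd1, Ccnd2, Ccne2, Cdk2 and Cdkn1b) and 2 higher (Ccnd3 and Cdk4) at an adjusted p under 0.05. In that fit 21.1% of all genes were lower and 21.5% higher. The log2 fold changes were -1.70 for Ccnd1, -1.66 for Ccne2, -1.28 for Ccnd2, -0.77 for Cdkn1b and -0.49 for Cdk2, and 0.58 for Cdk4 and 0.56 for Ccnd3. With shTbl1xr1 3 and 4 only, 0 of the 10 passed by edgeR and 1 (Ccnd1) was lower at an unadjusted p under 0.05, where 7 genes were higher (0.0478%) and 0 lower in all, and 4.62% of all genes were lower at an unadjusted p under 0.05. In the other 16 alternatives, apart from DESeq2 and limma-voom, 0 of the 10 passed, where 0% to 0.273% of all genes were higher and 0% to 0.0426% lower.

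**Figure D4:**
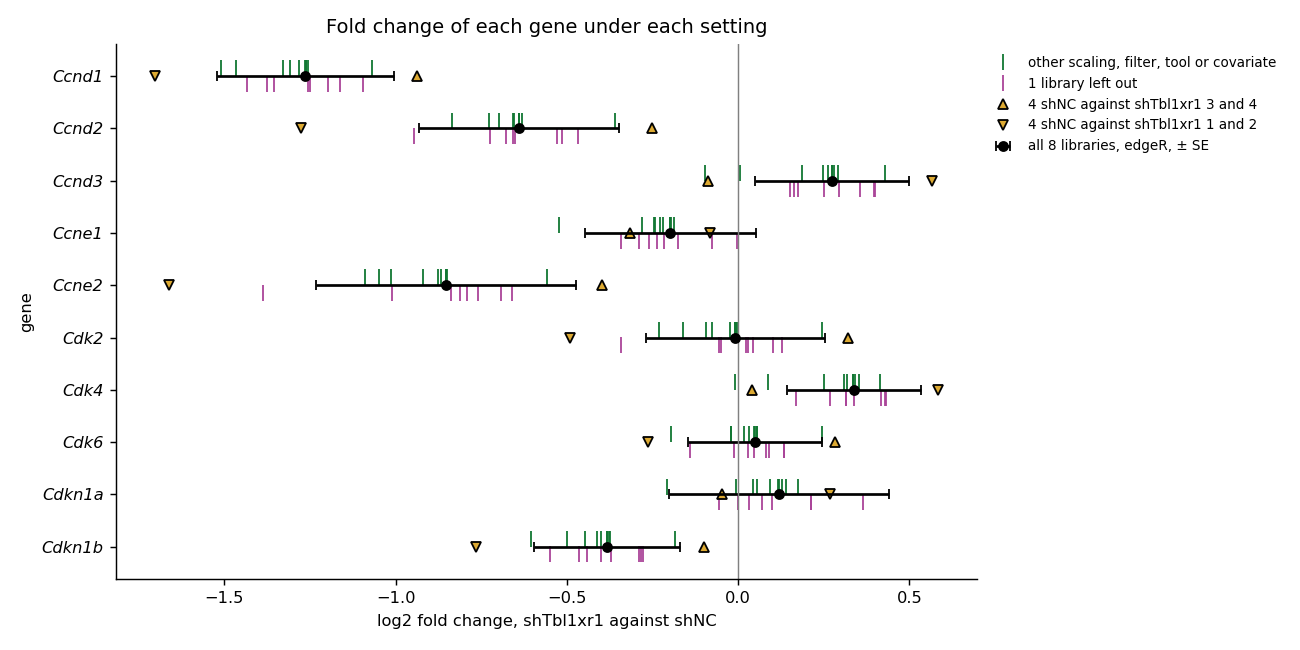
Log2 fold change of shTbl1xr1 against shNC (horizontal axis) for each gene, from edgeR with all 8 libraries (black, ± SE) and under the alternatives (coloured marks). Ccnd1 lies between -1.70 and -0.94 under all of them, while Cdk2, Cdk6, Cdkn1a, Ccnd3 and Cdk4 have values on both sides of 0.

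The other genes of the G1 to S step gave no call by edgeR in either direction. Among pocket proteins and E2F factors, 7 of 13 had negative log2 fold changes (median -0.06), 0 of 13 passed, and 1 was lower at an unadjusted p under 0.05, beside 3.71% of all genes. That gene was E2f2, an activator E2F whose means were 13.4 ± 2.00 (shNC) and 8.91 ± 2.17 CPM (shTbl1xr1; log2 fold change -0.58, SE 0.21, adjusted p = 0.393). Tfdp1, a DNA-binding partner of several E2F factors, had -0.23 (SE 0.18). Relative to the shNC mean on the log2 scale, E2f2 was -0.70 in the shallow pair and -0.51 in shTbl1xr1 3 and 4.

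Of 14 genes that activate or turn over the G1 cyclins, kinases and inhibitors, 0 passed and the median log2 fold change was -0.01. Fbxo31, an F-box protein that targets cyclin D1 for degradation, had 16.0 ± 3.76 and 23.2 ± 7.15 CPM (0.53, SE 0.27, adjusted p = 0.443). Cul1, the scaffold of the SCF ubiquitin ligases, had 50.5 ± 4.13 and 41.8 ± 3.94 CPM (-0.27, SE 0.14, adjusted p = 0.446), and its groups did not overlap. In this list the groups also did not overlap for the kinase Gsk3b (0.27), which was named after its values were seen. Over all genes, 3.37% were lower and 3.88% higher without overlap. In the shallow pair and in shTbl1xr1 3 and 4, Fbxo31 was 0.77 and 0.24 from the shNC mean on the log2 scale, and Cul1 was -0.38 and -0.16. Of the other CDK inhibitors, 3 of 5 had enough counts and 0 passed, with Cdkn1c at -0.46 (SE 0.41) and Cdkn2c at -0.08 (SE 0.22).

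E2F target genes of S phase entry, which follow the G1 kinases in the cycle, had 12 of 18 log2 fold changes below 0 and a median of -0.16, and 0 passed. Mcm2, a subunit of the replicative helicase, had 43.5 ± 10.5 and 30.4 ± 13.3 CPM (-0.50, SE 0.30, adjusted p = 0.487). Tk1, which makes thymidine monophosphate, had 39.2 ± 7.92 and 50.2 ± 11.2 CPM (0.35, SE 0.21, adjusted p = 0.487). Ccna2 and Cdk1, which act after cyclin E, had -0.01 (SE 0.28) and 0.08 (SE 0.26). The log2 difference from shNC in the shallow pair was -0.95 for Mcm2, 0.60 for Tk1, 0.28 for Ccna2 and 0.36 for Cdk1. In shTbl1xr1 3 and 4 it was -0.19, 0.11, -0.31 and -0.23 for the same genes, so Ccna2 and Cdk1 had opposite signs in the pairs. Among p53 targets, listed because Cdkn1a is one, 0 of 10 passed, 7 were above 0 and the median was 0.17. Tnfrsf10b, a death receptor, had 3.06 ± 0.331 and 4.45 ± 0.768 CPM (0.55, SE 0.21, adjusted p = 0.405), and the apoptosis effector Bax had 29.9 ± 3.77 and 42.0 ± 16.0 CPM (0.48, SE 0.26, adjusted p = 0.470). Bax was 0.89 from the shNC mean on the log2 scale in the shallow pair and -0.062 in shTbl1xr1 3 and 4, while Tnfrsf10b was 0.35 and 0.68.

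The genes whose log2 CPM over the 8 libraries was most like that of Ccnd1, out of 9565 with a mean of at least 5 CPM, were Mlst8, Krr1, 9430015G10Rik, Alg6 and Cenpc1. Their Pearson correlations were 0.98, 0.97, 0.97, 0.96 and 0.95. Each was picked as the highest of many, all points share the same libraries, and shTbl1xr1 1 and 2 stand apart among them, so these values are a description. Log2 fold changes were -0.50 for Mlst8, a subunit of the mTOR complexes, and -0.36 for Krr1, which acts in making the small ribosomal subunit. Cenpc1, a kinetochore protein, had -0.66, Alg6, an enzyme of protein glycosylation, -0.35, and 9430015G10Rik -0.88, all with adjusted p of at least 0.345.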

How the data were processed

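The authors deposited 1 table per library with an expected count per gene (an estimate of fragments that need not be whole), TPM, FPKM and mean transcript length, per the file headers. Deposited FPKM values were not used. Per the submitters' processing notes, the build was mm10 and the tools included RSEM, STAR and DESeq2 1.30.1. Neither strand setting nor annotation release is given in the sources used here. Similar genes can share fragments in RSEM estimates. Symbols and gene positions came from GENCODE M21 on GRCm38, the assembly of mm10, and promoters from RefSeq.

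Expected counts were rounded, filtered by filterByExpr, scaled by TMM and tested by edgeR 4.0.16 (quasi-likelihood, robust, no covariate) in R 4.3.3. Benjamini-Hochberg adjustment ran over 13908 genes, with a threshold of 0.05. Log2 levels, computed from the deposited expected counts, used a prior count of 2. Sums, shares and ratios of several genes used deposited TPM and two-sided exact permutation tests over 70 arrangements, adjusted over 4 values. No separate animals are named, so p-values measure the spread between libraries. Tests were checked on simulated data.

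The members, lists and rules were chosen with earlier results of these data known. Beside the 10 genes and Tbl1xr1, the rule named the 2 genes with the smallest p in each of 5 pathway lists, as none passed, and the 5 genes most like Ccnd1; Ccna2, Cdk1 and the markers Alb and Hnf4a were named in addition, as was Gsk3b. Alternatives were 19 planned and 1 added fit, DESeq2 1.42.0, limma 3.58.1 and sva 3.50.0 among them.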

Additional observations from a re-analysis of the deposited data

How the results depend on the processing

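Over 20 alternatives the count of the 10 genes called lower was 0 except for 1 with DESeq2, 1 with limma-voom and sample weights (Ccnd1 in both) and 5 with the shallow shTbl1xr1 pair only. The count called higher was 0 except for 2 in that last setting. With 1 library left out, both counts were 0 to 0 by edgeR. Ccnd1, Ccnd2, Ccne1, Ccne2 and Cdkn1b were below 0 in all 20, Ccnd1 between -1.70 and -0.94 on the log2 scale. Library size alone moved the median of all genes to -0.27 from 0.01, and there Ccnd3 was -0.098, Cdk4 -0.010, Cdk6 -0.19 and Cdkn1a -0.21. DESeq2's median over all genes was 0.10. Cdk6 was -0.022 with upper quartile scaling, -0.020 with limma-voom and -0.26 with the shallow pair only. With 1 surrogate variable Cdk2 was 0.25 and Cdkn1a -0.0065. With shTbl1xr1 3 and 4 only, Ccnd3 was -0.087, Cdk2 0.32, Cdkn1a -0.047 and the Ccne1 share of E cyclin TPM -0.16 percentage points. With 1 library left out, Cdk2 ran from -0.34 to 0.13, Cdk6 from -0.14 to 0.13 and Cdkn1a from -0.057 to 0.37. Ccne1 ran from -0.34 without shTbl1xr1 4 to -0.0021 without shTbl1xr1 3, and was -0.077 without shNC 3. Ccne2 was -1.39 without shTbl1xr1 4 (adjusted p = 0.0836). Ccnd3 was 0.15 without shTbl1xr1 1, 0.16 without shNC 2 and 0.18 without shTbl1xr1 2, and Cdk4 was 0.17 without shTbl1xr1 1. The cause of these changes was not tested.

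The Ccnd1 share of D cyclin TPM ran from -29.1 to -20.6 percentage points with 1 library left out and the summed D cyclin TPM from -1.24 to -0.79 on the log2 scale. An exact test of 4 against 2 libraries cannot go below 0.0667. Deviations from the group means correlated at 0.38, -0.07, 0.30 and 0.12 between libraries of the same replicate number. These correlations do not settle whether the numbers pair the libraries, and the main fit did not pair them. With a replicate block in edgeR, Ccnd1 had -1.31 (adjusted p = 0.281), Ccne2 -1.01 (adjusted p = 0.374) and Ccnd2 -0.73 (adjusted p = 0.409). With that block 0 of the 10 genes passed. The Ccnd1 share had an exact sign-flip permutation p of 0.125, the smallest that its 16 arrangements can give, so this test could not pass. Of the 4 shNC libraries, shNC 2 correlated best with shTbl1xr1 4 and the others with their own number. Depth limits Ccnd2 and Ccne2 most, with 32 to 43 counts in the shallow pair.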

Other observations

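The deposited mean transcript length, which weights a gene's annotated transcripts by their estimated abundance, differed between libraries for some of the 10 genes. For Cdk6, with 6 annotated transcripts, it was 4657, 7351, 6119 and 7444 bases in shNC 1 to 4 and 10409, 9395, 5813 and 7615 bases in shTbl1xr1 1 to 4. Cdk4 had 1431, 1720, 1539 and 1474 bases in shNC and 1261, 1410, 1750 and 1570 bases in shTbl1xr1. For Ccnd1 the range was narrow, 3708 to 3728 bases in shNC and 3691 to 3740 bases in shTbl1xr1.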
